A study of Rattus norvegicus with 102 samples.

Results

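The hyperpolarization-activated cyclic nucleotide-gated (HCN) pacemaker channels were followed through 4 genes, the pore-forming subunits Hcn2, Hcn3 and Hcn4 and the auxiliary subunit Pex5l. They were taken by exact gene symbol, and each had 1 row among the 26284 genes of the main table. They are listed there as protein-coding genes, Hcn2 (ENSRNOG00000008831) on chromosome 7, Hcn3 (ENSRNOG00000020444) and Pex5l (ENSRNOG00000011211) on chromosome 2, and Hcn4 (ENSRNOG00000009450) on chromosome 8. The genes were measured by RNA sequencing of hippocampal subfields CA1, CA3 and dentate gyrus (DG) of 34 male Fischer 344 rats, 1 tissue sample per subfield and rat, with no transgene or drug. The rats were 10 young animals of 5 to 6 months (Y), 12 aged animals classed as unimpaired in a water maze (OG) and 12 aged animals classed as impaired (OB), the aged rats being 17 to 22 months old. Each of 3 tables held 34 libraries per subfield from these samples: poly-A libraries sequenced on Illumina, poly-A libraries sequenced on Ion Proton, and a set labelled WT whose library type is not stated in the sources used here. The Illumina and Ion Proton libraries were prepared separately from the same RNA. A library named below for more than 1 table stands for the libraries of 1 sample. Values are reads divided by a size factor for each library (normalised reads), so levels can be compared between samples of a gene but not between genes, because transcript lengths were not available here. The tissue is a dissected subfield that holds several cell types, so fewer cells of a type and less RNA per cell cannot be told apart in any of the values.

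HCN channels open when the membrane hyperpolarizes and carry a mixed cation current, Ih, that depolarizes the cell, sets its input resistance and shapes how dendritic inputs sum. The channels are tetramers of HCN subunits, and binding of cAMP to their intracellular domain makes most of them open more readily. Pex5l encodes TRIP8b, a protein that controls how many channels reach the surface and where, and in CA1 pyramidal neurons it is known for placing them in the distal apical dendrite.

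Depth ranged from 3.25 to 42.8 M reads per library in the Illumina table (median 10.7), from 4.47 to 21.4 in the Ion Proton table (median 9.74) and from 3.54 to 20.6 in the WT table (median 8.07). The markers of 11 libraries (1 labelled CA1, 7 CA3 and 3 DG) lay nearer to another subfield than to their own label in both poly-A tables, and the results below that rest on subfield were also computed without them. On Ion Proton, 3 libraries had the fewest genes with a read: R2232 CA1 with 15057, R2230 CA1 with 15650 and R1931 CA3 with 15665, against a median of 18535. These 3 also had the lowest correlation with the median profile, and between 15 and 55 of the 10377 genes whose median was at least 100 were at 0 in each of them.

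Hcn2 encodes a subunit with strong sensitivity to cAMP, and it had a mean of 1487 ± 243 normalised reads (SD over all Illumina libraries). Hcn3, whose channels respond little to cAMP, had 199 ± 59.3, and Pex5l had 1215 ± 469. Hcn4, the slow subunit best known from the sinoatrial node and the thalamus, had a median of 23.5 normalised reads, with an SD of 14.8, which rested on a median of 22 reads and on 3 or fewer reads in 2 libraries. All 4 genes passed the minimum mean of 10 in every table. Counting error is thus larger relative to the value for Hcn4 than for the others.

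**Figure D1:**
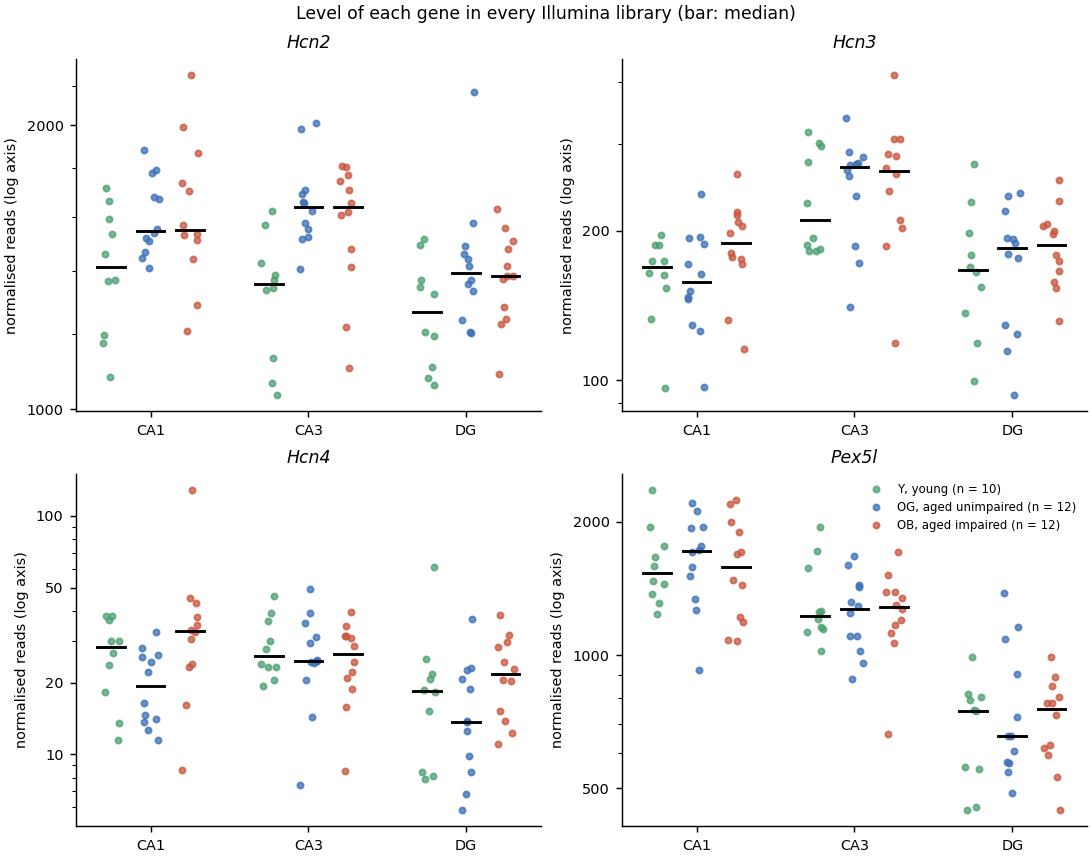
Normalised reads (log axis) of each gene in every Illumina library, by subfield and by group (Y, n = 10; OG, n = 12; OB, n = 12), 1 point a rat, with bars at the group medians. The Pex5l medians stepped down from CA1 to CA3 to DG, Hcn3 was highest in CA3, and the highest Hcn4 value, 128.7, was a single CA1 library of the OB group.

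The first question was how the subfields differ regardless of age and maze class, asked with limma on log2(value + 1) over all libraries of a table. A gene was called where both poly-A tables gave a Benjamini-Hochberg adjusted p under 0.05 with 1 sign. Between CA1 and CA3 this called 1 of the 4 genes, against 14.1% of the 14179 genes tested. It called 2 of 4 between CA1 and DG, against 26.4% of all genes, and 2 of 4 between CA3 and DG, against 27.9%. Calls between subfields were thus common among all genes, and the size and repeatability of each difference are given below.

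Pex5l, the auxiliary subunit, differed most. The CA1 libraries held 928 to 2366 normalised reads with a median of 1627, the CA3 libraries 663 to 1947 with a median of 1254, and the DG libraries 447 to 1380 with a median of 729 (n = 34 each). The ranges overlapped, and the libraries in the overlap were partly those with unexpected subfield markers: the lowest CA1 library (R9869), the lowest CA3 library (R9781) and the highest DG library (R9865) were all among the 11. Expression was 2.25-fold higher in CA1 than in DG (log2 difference 1.17 ± 0.08, SE, limma adjusted p = 5.97e-22) and 1.78-fold higher in CA3 than in DG (0.83 ± 0.08, adjusted p = 7.23e-15). The Ion Proton table gave 1.11 ± 0.09 and 0.90 ± 0.09, and the WT table gave 1.26 ± 0.08 and 0.86 ± 0.08.

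Within the same animal, Pex5l was higher in CA1 than in DG in 32 of 34 rats in the Illumina table, in 33 on Ion Proton and in 32 in the WT table. The CA3 library was above the DG library in 32 of 34 rats on Illumina. Without the 11 libraries, the direction held in 30 of 30 rats for CA1 over DG and in 26 of 26 for CA3 over DG. Those libraries were picked by subfield markers in the same tables. Their removal, here and below, thus favours a uniform direction for any gene that follows subfield. The CA1 to CA3 difference was smaller: 0.34 ± 0.08 on Illumina (limma adjusted p = 0.00064), 0.21 ± 0.09 on Ion Proton (limma adjusted p = 0.091) and 0.41 ± 0.08 in the WT table (limma adjusted p = 1.59e-05). It was therefore not called by the rule, and 26 of 34 rats showed it on Illumina. Leaving out the 3 Ion Proton libraries with the fewest genes, 1 of which held the highest Pex5l value of that table (3063, R1931 CA3), gave a call. By number series of the rats, a split that the labels' rat numbers give and whose meaning they do not state, the difference was 0.51 among rats below 9000 and 0.14 among rats from 9000 up, and only the first was called. Over all genes the calls for this pair also differed, 21.4% below 9000 and 3.88% from 9000 up, and 7 of the 8 rats with 1 of the 11 libraries were in the higher series. Whether the series differ was not tested. The study tested its rats at separate sites, and the labels do not give the site of a rat.

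**Figure D2:**
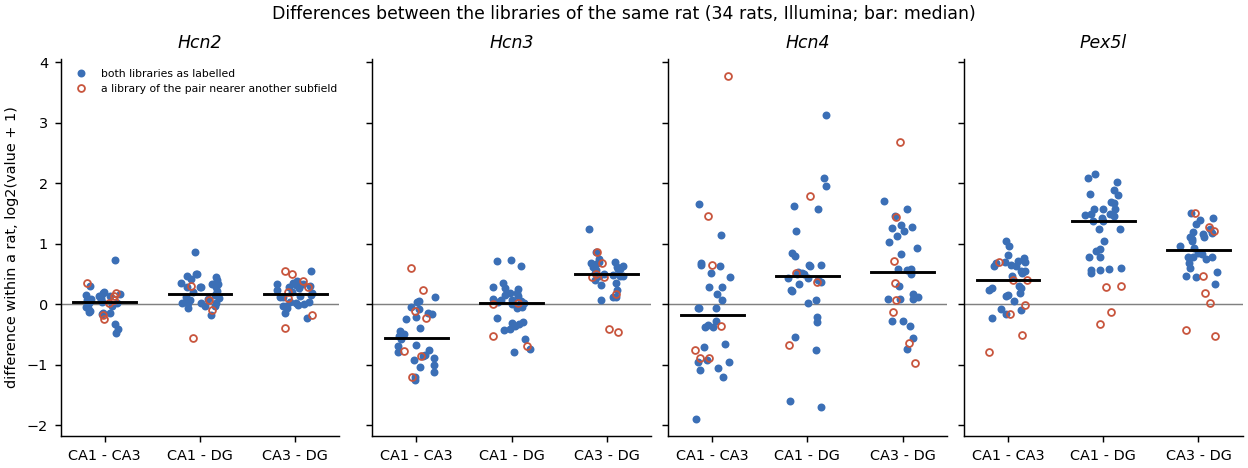
Difference in log2(value + 1) between 2 libraries of the same rat (34 rats, Illumina table) for each pair of subfields, with bars at the medians; open points are pairs that include 1 of the 11 libraries whose markers lay nearer another subfield. For Pex5l against DG and for Hcn3 from CA3 to DG, the points below 0 were all open, and Hcn4 had the widest spread, from -1.89 to 3.77 for CA1 minus CA3.

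Hcn3 had its maximum in CA3. The CA3 libraries held 119 to 413 normalised reads with a median of 264, the CA1 libraries 96.4 to 260 with a median of 174, and the DG libraries 93.2 to 273 with a median of 179. The ranges overlapped widely, and the lowest CA3 library (R9875) was again 1 of the 11. Levels in CA1 were lower than in CA3 by 0.51 ± 0.09 on the log2 scale (fold 0.700, limma adjusted p = 8.56e-07), and levels in CA3 were above those in DG by 0.47 ± 0.09 (fold 1.39, limma adjusted p = 2.53e-06). On Ion Proton the differences were -0.72 ± 0.21 and 0.59 ± 0.21, and in the WT table -0.62 ± 0.12 and 0.44 ± 0.12. CA1 and DG were not distinguished (-0.04 ± 0.09, limma adjusted p = 0.69).

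The CA3 library held more Hcn3 than the CA1 library of the same rat in 29 of 34 animals on Illumina, 24 on Ion Proton and 30 in the WT data. It held more than the DG library in 32, 27 and 23 rats respectively, and without the 11 libraries in 26, 22 and 18 of 26 rats. In the Ion Proton table Hcn3 was listed at 0 in R2230 CA1, 1 of the 3 libraries with the fewest genes, while the same library had 3079 normalised reads of Hcn2. Without those 3 libraries the Ion Proton differences were -0.58 for CA1 minus CA3 and 0.62 for CA3 minus DG, and both remained called. Among rats below 9000 alone neither of these Hcn3 differences was called (-0.40 and 0.45 on Illumina), against 21.4% and 22.9% of all genes called in those rats, and the second was also lost on Ion Proton without the 7 deepest rats or with a pseudocount of 0.1.

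Hcn2 varied little between subfields. Its median was 1533 normalised reads in CA1 (lowest 1082, highest 2261), 1573 in CA3 (lowest 1034, highest 2012) and 1370 in DG (lowest 1059, highest 2168). The 3 ranges were nearly the same, with the bulk of the DG libraries somewhat lower. The level in CA1 was 1.14-fold that in DG (log2 difference 0.19 ± 0.05, limma adjusted p = 0.0021; 0.32 ± 0.09 on Ion Proton), and 28 of 34 rats had this direction. The WT table gave 0.10 ± 0.08 for the same pair and no call, and rats below 9000 alone gave 0.12 and no call. CA3 against DG was 0.16 ± 0.05 (limma adjusted p = 0.0081) but 0.14 ± 0.09 on Ion Proton (limma adjusted p = 0.27), and CA1 against CA3 was 0.03 ± 0.05, so neither was called.

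Hcn4, the lowest-count gene of the 4, had a median of 25.9 normalised reads in CA1 (lowest 8.58, highest 128.7), 24.7 in CA3 (lowest 7.46, highest 49.4) and 18.7 in DG (lowest 5.85, highest 61.3). The ranges overlapped, and the maxima of CA1 and DG each belonged to a single library far above the next. Its Illumina level was 1.41-fold higher in CA1 than in DG (0.49 ± 0.16, limma adjusted p = 0.0075) and 1.45-fold higher in CA3 than in DG (0.53 ± 0.16, limma adjusted p = 0.0035), with 27 and 26 of 34 rats in these directions. On Ion Proton the differences were of similar size with a wider error, 0.48 ± 0.26 and 0.49 ± 0.26, and did not pass (limma adjusted p = 0.16 and 0.15). The WT table gave 0.44 ± 0.17 and 0.68 ± 0.17 (limma adjusted p = 0.025 and 0.00038). Hcn4 was listed at 0 in 2 Ion Proton libraries, R2232 CA1 and R1931 CA3, both among the 3 with the fewest genes, and without those 3 libraries the Ion Proton differences were 0.70 and 0.63 and both were called by the rule. CA1 and CA3 were not distinguished (-0.04 ± 0.16).

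**Figure D3:**
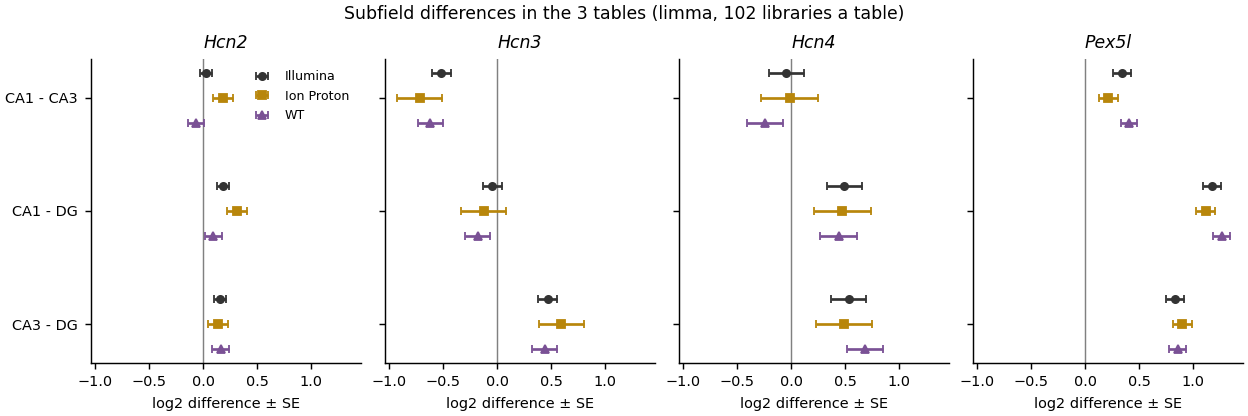
Log2 difference between subfields for each gene, with its standard error, in the Illumina, Ion Proton and WT tables (limma, 34 libraries per subfield and table). The 3 tables placed Pex5l near 1.2 for CA1 minus DG and near 0.9 for CA3 minus DG, and placed Hcn3 on opposite sides of 0 for CA1 minus CA3 and CA3 minus DG; the Hcn4 errors were the widest on Ion Proton.

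Markers of other cell types moved with the DG contrasts. All 8 oligodendrocyte markers were called higher in CA1 and in CA3 than in DG, with median log2 differences of 0.72 and 0.89, and their summed level in Illumina libraries reached 295555 normalised reads in CA1 (lowest 75690), 389035 in CA3 (lowest 55887) and 220904 in DG (lowest 45949). Of 8 interneuron markers tested, 4 were called higher in CA1 than in DG and 4 higher in CA3 than in DG. Of 5 thalamus and habenula markers tested, 2 were called higher in each of these contrasts. For CA1 against CA3, 0 markers of these 3 lists were called. Other lists were counted against the 26.4% and 27.9% of all genes called in these contrasts. Of them, 2 of 7 microglia, 3 of 5 endothelium and 2 of 5 choroid plexus markers were called higher in CA1 than in DG, and 4 of 7, 0 of 5 and 1 of 5 higher in CA3 than in DG, as were 0 and 1 of 6 astrocyte markers. None of the markers of these 4 lists was called lower in a DG contrast or called between CA1 and CA3. Of 4 subiculum markers, 1 was called higher and 2 lower in CA1 than in DG, 2 higher and 1 lower in CA3 than in DG, and 2 lower in CA1 than in CA3. The part of such cells in the differences of Hcn2, Hcn4 and Pex5l from DG was not tested.

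Genes of HCN partners, of cAMP turnover and of other membrane conductances were counted in 3 lists, beside 14.1%, 26.4% and 27.9% of all genes called for CA1 minus CA3, CA1 minus DG and CA3 minus DG. Of 16 partners and regulators tested, 2 were called higher and 1 lower in CA1 than in CA3, 2 higher and 3 lower in CA1 than in DG, and 2 higher and 4 lower in CA3 than in DG, with list medians of -0.026, -0.042 and 0.0039 in that order. The medians over all genes lay between 0.00 and 0.01. The largest differences of the list between CA1 and DG were those of Flna, an actin-binding filamin (0.49 ± 0.11), Src, a tyrosine kinase (-0.42 ± 0.04), and Lrmp, which is known to limit the response of Hcn4 channels to cAMP (0.36 ± 0.07). Lrmp was likewise called higher in CA3 than in DG (0.41 ± 0.07), and its difference between CA1 and CA3 was -0.06 ± 0.07, not called. Of 15 genes of cAMP synthesis and breakdown, 5 were higher and 2 lower in CA1 than in CA3, 5 higher and 2 lower in CA1 than in DG, and 8 higher and 5 lower in CA3 than in DG. The phosphodiesterases Pde7b (-0.50 ± 0.13), Pde10a (-0.36 ± 0.07) and Pde4b (0.35 ± 0.06) led that list for CA1 minus DG. Of 21 genes listed for the resting conductance, channels and their auxiliary subunits, 8 were higher and 3 lower in CA1 than in CA3, 2 higher and 9 lower in CA1 than in DG, and 2 higher and 14 lower in CA3 than in DG (list medians 0.27, -0.20 and -0.39). The potassium channels Kcnq5 (-1.22 ± 0.14), Kcnk3 (1.16 ± 0.15) and Kcnk10 (-0.78 ± 0.10) led it for CA1 minus DG. Of the other cyclic nucleotide-gated channels, 0 of 7 rows reached the minimum mean.

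The second question was whether the channel genes differ with age, asked within each subfield for all aged against young rats and for OG and OB against the same 10 young rats. The rule, taken from the study, was an unadjusted p under 0.01 on Illumina with a one-sided p under 0.05 in the same direction on Ion Proton. Of 36 tests (4 genes in 9 comparisons) it called 1, Hcn2 in CA3 for OG against Y, where it called 0.386% of all genes tested. Its background was 0.832%, 0.607% and 1.21% of genes in CA1 for aged, OG and OB rats against Y, 0.393% and 0.274% in CA3 for aged and OB rats, and 1.07%, 0.621% and 0.948% in DG. After Benjamini-Hochberg adjustment over all genes, 0 of the 36 were under 0.05 by limma, while 7 had an unadjusted p under 0.05, each of them Hcn2, against 4.75% of all tests over genes in these 9 comparisons, which share their young rats. The share of all genes under 0.05 after adjustment was 0.338%, 0% and 0.0212% in CA1, 0% in each CA3 comparison, and 0.3%, 0.05% and 0.0998% in DG.

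Hcn2 in CA3 ranged from 1034 to 1624 normalised reads in young rats with a median of 1358, from 1407 to 2012 in OG rats with a median of 1639, and from 1105 to 1810 in OB rats with a median of 1636. The groups overlapped, although 12 of 12 OG libraries were above the young median and 10 of 10 young libraries were below the OG median. The OG level was 1.25-fold the young level (log2 difference 0.33 ± 0.08, limma p = 0.00034, adjusted p = 0.47), and it was 0.26 ± 0.13 on Ion Proton (limma two-sided p = 0.056, adjusted p = 1) and 0.28 ± 0.12 in the WT table (limma p = 0.028, adjusted p = 1). The call was lost without young rat R9876 (0.29), without young rat R1922 (0.29) or without the 7 most deeply sequenced rats (0.29), and in either number series alone (0.29 and 0.36). For OB against Y the difference was 0.25 ± 0.09 on Illumina, which missed the rule. Among markers, 1 of 7 microglia markers, Cx3cr1, met the rule in CA3 for OG against Y (0.25) and 0 markers of the interneuron, oligodendrocyte and astrocyte lists did.

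For all 24 aged against 10 young rats, Hcn2 in CA1 averaged 1620 ± 231 against 1415 ± 216 normalised reads (SD). The CA3 averages were 1618 ± 206 against 1330 ± 198, and the DG averages 1411 ± 208 against 1270 ± 165. Aged rats were thus higher on average in each subfield, with the groups overlapping in all 3. The log2 differences were 0.20 ± 0.08 (limma p = 0.013), 0.29 ± 0.07 (p = 0.00051) and 0.15 ± 0.07 (p = 0.040), with adjusted p of 0.56, 0.25 and 0.89. On Ion Proton they were 0.29 ± 0.15, 0.19 ± 0.13 and 0.30 ± 0.12, and the WT values were 0.30 ± 0.10, 0.26 ± 0.10 and 0.07 ± 0.13, all 9 of them above 0. The tables measure the same rats, so these are not 9 independent results. The Ion Proton value in CA1 includes the OG libraries R2232 and R2230, which are among the 3 with the fewest genes. None of these age differences met the rule in the 2 poly-A tables, although CA3 did without the 3 Ion Proton libraries with the fewest genes or without the 7 deepest rats, and CA1 did without young rat R9876 (0.23) or with the number series as a covariate (0.21). In the test of the difference itself, no pair of subfields passed for the age effect on Hcn2 (limma interaction, adjusted p = 1 for each pair), and the effect in CA1 minus that in CA3 was -0.09 ± 0.11. In the same comparisons 4 of 7 microglia markers met the rule in CA1, 2 in CA3 and 6 in DG, all higher in aged rats. The astrocyte marker Gfap met it in CA1, CA3 and DG (0.44, 0.45 and 0.41), the only 1 of 6 astrocyte markers to do so, and the part of these cells in the Hcn2 values was not tested.

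Hcn3, Hcn4 and Pex5l gave no call with age. Over the 9 age comparisons and 3 comparisons of maze class, the Illumina log2 differences ran from -0.02 to 0.22 for Hcn3 and from -0.09 to 0.14 for Pex5l, below the size of every called subfield difference of these genes on Illumina. The lowest unadjusted limma p among these 12 was 0.099 for Hcn3 and 0.42 for Pex5l. On Ion Proton the Hcn3 differences were wider. They ran from -35.8% (OG against Y) to 57.9% (OB against OG), both in CA1 with the OG library R2230 at 0, and OB against Y in DG was 39.9%. For Hcn4 the 9 Illumina age differences ran from -0.36 (OG against Y in CA1) to 0.33 (OB against Y in CA1). In CA1, 1 of 12 OG libraries lay above the young median of Hcn4 on Illumina. That difference was -0.36 ± 0.22 on Illumina (limma p = 0.12, adjusted p = 1), -0.92 ± 0.51 on Ion Proton (-0.34 without the 3 libraries of fewest genes) and 0.22 ± 0.25 in the WT table, so the tables did not share a direction.

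The third question was whether the aged rats differ by maze class, OB against OG. Of 12 tests (4 genes in 3 subfields) 0 met the rule under limma, against 0.62% of all genes in CA1, 0.121% in DG and 0.0211% in CA3, and 0 had an adjusted p under 0.05, as did 0% of all genes in each of these comparisons. By other tools, 1 of 12 met it with edgeR and 1 of 12 with DESeq2, both Hcn4 in CA1 (where these tools called 0.683% and 0.824% of all genes), and the unadjusted p was under 0.05 for 2 of 12 under limma, Hcn4 in CA1 and in DG, where 5.71% and 3.85% of all genes were under it. The study named Hcn4 for the CA1 contrast from these same rats, so the values below are not independent evidence of it.

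In CA1, Hcn4 ranged from 11.4 to 32.7 normalised reads in OG rats with a median of 19.3, and from 8.58 to 128.7 in OB rats with a median of 32.8; young rats lay between 11.5 and 38.1 with a median of 28.2. Of these, 10 of 12 OB libraries were above the OG median and 12 of 12 OG libraries were below the OB median, but the lowest value of all was an OB library and the young range overlapped both. The difference was 0.69 ± 0.28 on Illumina (limma p = 0.021, adjusted p = 0.78), 1.22 ± 0.48 on Ion Proton (limma p = 0.016, adjusted p = 1) and 0.39 ± 0.26 in the WT table (limma p = 0.15, adjusted p = 0.85). On reads recovered from the values, edgeR gave 0.93 (p = 0.0050, adjusted p = 0.57) and DESeq2 gave 0.93 (p = 0.0023, adjusted p = 0.31). The 2 OG libraries R2232 and R2230, at 0 and 2.97 on Ion Proton, were among the 3 with the fewest genes, and without them the Ion Proton difference was 0.65 (p = 0.044).

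The OB sample R9875 CA1 carried the highest Hcn4 value in each of the 3 tables: 128.7 on Illumina (116 reads), 109 on Ion Proton (146 reads) and 57.8 in the WT table (71 reads). Without it the Illumina difference was 0.51 (limma p = 0.040, adjusted p = 0.80). With each of the 24 aged rats left out in turn, that difference ran from 0.51 to 0.85 and met the rule only without OB rat R9874. Sample R9875 CA1 also had the highest summed level of 7 thalamus and habenula markers in each table, 3159 normalised reads on Illumina against a median of 513 over all libraries. The sample second in Hcn4 in each table, R9881 DG of a young rat, was also second in this marker sum, with 2270 on Illumina. Both had 1 of the 7 markers, Pou4f1, at 0 in the Illumina table. The third library by marker sum, R9865 CA3 (1747), had 24.5 normalised reads of Hcn4, and the fifth, R9870 CA1 (1579), had 45.4. Across groups the marker sum in CA1 ran from 385 to 1176 in OG rats (median 549) and from 485 to 3159 in OB rats (median 575), and 0 of 5 markers tested met the rule for OB against OG in CA1. The part of such tissue in the Hcn4 values was not tested.

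**Figure D4:**
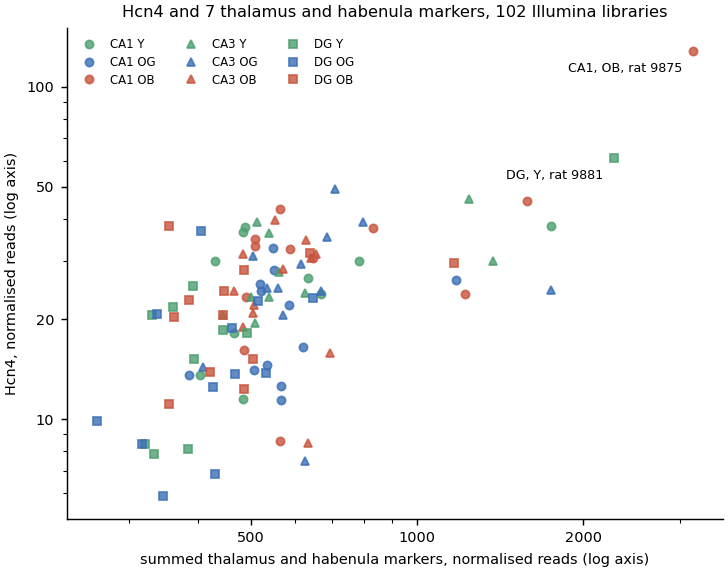
Hcn4 against the summed level of 7 thalamus and habenula markers (both in normalised reads, log axes) in every Illumina library, coloured by group and shaped by subfield. The 2 libraries at the upper right, R9875 CA1 and R9881 DG, are highest on both axes, while the other libraries have Hcn4 between 5.85 and 49.4.

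In DG, Hcn4 ranged from 5.85 to 36.8 normalised reads in OG rats with a median of 13.7 and from 11.1 to 38.3 in OB rats with a median of 21.7. The OB libraries lacked the lowest values, and 10 of 12 lay above the OG median. The difference was 0.53 ± 0.25 on Illumina (limma p = 0.047, adjusted p = 1), 0.29 ± 0.33 on Ion Proton and 0.54 ± 0.29 in the WT table. In the same Illumina comparison 6 of 6 CA3 markers (list median 0.30) and 5 of 5 thalamus and habenula markers (0.19) were higher in OB rats. Of the DG markers 0 of 5 were higher (-0.34). None of these markers was called, and their part in the Hcn4 values was not tested. In CA3 the Hcn4 difference was -0.05 ± 0.25 on Illumina, -0.80 ± 0.51 on Ion Proton and -0.13 ± 0.26 in the WT table. Its Illumina value was above 0 without the 11 libraries (0.29) and in rats below 9000 (0.51). Its Ion Proton value includes the OB library R1931 CA3 at 0, and 6 of 12 OB libraries there lay above the OG median. The effect of maze class on Hcn4 in CA1 minus that in CA3 was 0.74 ± 0.38 (limma interaction p = 0.053, adjusted p = 0.91), or p = 0.041 and adjusted p = 0.66 with a replicate block on the rat, and 0.44 ± 0.40 without the 11 libraries. On Ion Proton it was 2.02 ± 0.61 (limma interaction p = 0.0012, adjusted p = 0.82), and 1.06 ± 0.50 without the 3 libraries of fewest genes (limma interaction p = 0.036, adjusted p = 1). The WT table gave 0.52 ± 0.39 (limma interaction p = 0.19, adjusted p = 1), and none of these differences between the subfields passed after adjustment.

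**Figure D5:**
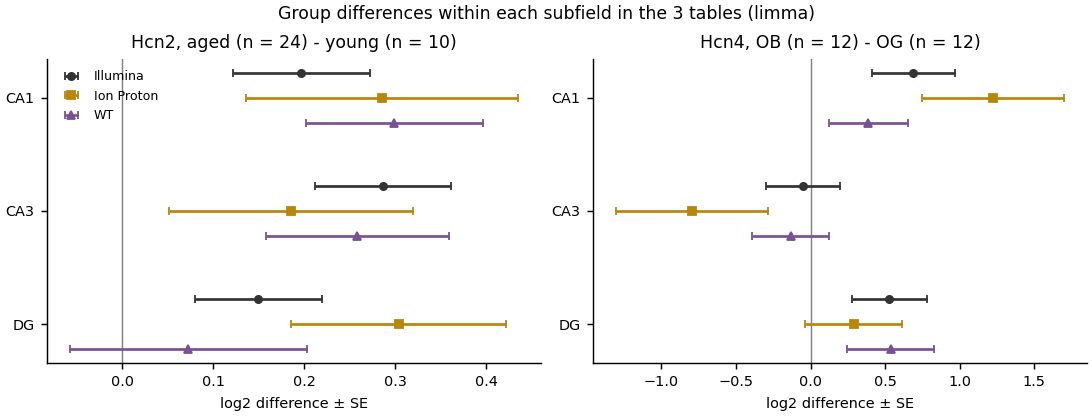
Log2 differences with standard errors for Hcn2 in aged against young rats and for Hcn4 in OB against OG rats, in each subfield and table (limma). All 9 Hcn2 estimates lie above 0, from 0.07 to 0.30, but the tables measure the same rats. The Hcn4 estimates lie above 0 in CA1 and DG and below 0 in CA3. There the Illumina value turned to 0.29 without the 11 libraries, and the Ion Proton value includes the OB library R1931 CA3 at 0.

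The genes whose levels followed each member most closely over all Illumina libraries were named by Pearson's r of log2(value + 1), as a description without a test, since the libraries of a rat, the depth and the subfields are shared by all genes. Pex5l had the closest neighbours: Synj2 (r = 0.91, and 0.85 on Ion Proton), Cpne8 (0.90 and 0.84), Ptpru (0.88 and 0.84), Tbl1x (0.87 and 0.60) and Prkcb (0.87 and 0.69). For Hcn3 they were Tspan9 (0.83 and 0.57), Itga3 (0.81 and 0.63), Gpr162 (0.81 and 0.35), Sema4g (0.79 and 0.66) and Phlda1 (0.78 and 0.20). For Hcn2 they were Scrt1 (0.81 and 0.65), Plekhm2 (0.77 and 0.76), Iqsec1 (0.75 and 0.81), Cbx7 (0.74 and 0.47) and Fam219a (0.72 and 0.22). Hcn4 had the weakest, led by Gpsm1 (0.66 and 0.61), Chrna4 (0.65 and 0.49), Baiap3 (0.65 and 0.62), Sema4g (0.64 and 0.50) and Timp2 (0.64 and 0.21). Several of these values fell on Ion Proton, so the order of the neighbours was not the same in both tables.

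Among the members themselves, Hcn3 and Hcn4 varied together over the 34 rats within each subfield of the Illumina table (r = 0.56 in CA1, 0.61 in CA3 and 0.65 in DG), above every other pair of members in that table, the next being Hcn2 with Pex5l in DG (0.49). On Ion Proton the same pair had r of 0.34, 0.46 and 0.65, where in CA3 Hcn2 had 0.60 with Hcn3 and 0.58 with Hcn4. In the WT table it had 0.67, 0.70 and 0.54, and Hcn2 with Hcn3 had 0.59 in DG. How well the tables agreed on the differences between rats was also compared, as r between Illumina and Ion Proton values of the same samples within a subfield. It was 0.88 in CA1, 0.62 in CA3 and 0.90 in DG for Pex5l, and 0.56, 0.75 and 0.62 for Hcn2. It was 0.27, 0.71 and 0.74 for Hcn3, and 0.47, 0.26 and 0.63 for Hcn4. Without the 3 Ion Proton libraries with the fewest genes, the CA1 values rose to 0.80 for Hcn2, 0.58 for Hcn3 and 0.73 for Hcn4.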

How the data were processed

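The authors sequenced poly-A libraries of dissected CA1, CA3 and dentate gyrus on Illumina and on Ion Proton, and deposited 3 tables of signal values, gene read counts divided by a size factor for each library. The submitters' processing notes name bcl2fastq 2.17, cutadapt 1.8.3, STAR 2.5, featureCounts 1.4.4, DESeq2 1.16.1 and build rn5; for the WT table the library type and the processing are not given in the sources used here. The labels and the study's methods name different library kits, so whether the counting used strand is not known. Low values were whole multiples of 1 read in each library, and 100.0% of values came out whole within 0.001, which gave the read totals used as depth.

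The 4 genes were taken by symbol. The members and the lists of partner genes and markers were chosen with earlier results of these data known. In R 4.3.3, limma 3.58.1 was fitted across all genes whose mean reached 10 in the samples compared, on log2(value + 1), so folds of low genes are understated. Subfields were compared over all libraries with group terms; groups were compared within a subfield. A subfield call needed an adjusted p under 0.05 (Benjamini-Hochberg) in one direction in both poly-A tables, and a group call an unadjusted p under 0.01 on Illumina and a one-sided p under 0.05 on Ion Proton in one direction, after the study's rule. The partner genes named were the 3 per list with the largest CA1 to DG difference among those called (1 listed gene is not reported here and was left out of its list), and the genes most alike were the 5 with the highest r per member. OG and OB were set against the same young rats, so those comparisons share controls. Libraries with the same rat number came from the same animal, as their titles state. The median correlation of their deviations from group means over 14179 genes was 0.0866 for CA1 and CA3, 0.189 for CA1 and DG and -0.0324 for CA3 and DG. Between different rats it was 0.00108, -0.0131 and -0.0059 in that order, so for CA3 and DG the correlation within a rat was no higher. The rat served as a block in an alternative. Replicates were separate rats.

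Alternatives were DESeq2 1.42.0 and edgeR 4.0.16 on recovered reads, pseudocount 0.1, no filter, quantile normalisation, each poly-A or WT table alone, the rat number series (18 rats below 9000 and 16 from 9000 up) alone or as a covariate, and fits without the 7 rats above 25 M reads, without the 11 libraries of unexpected markers and without each rat. Leaving out 3 Ion Proton libraries with few genes, or 2 libraries with high thalamus markers, was chosen after the values were seen. The fits were tested on simulated data.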

Additional observations from a re-analysis of the deposited data

Results flagged for a closer look

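Among the 10 young DG libraries, that of R9881 had 61.3 normalised reads of Hcn4 (50 reads) on Illumina, and the next highest had 25.1, a gap that passed Dixon's test for a single high value. This test marks about 1 in 20 groups by chance, and 12 groups (4 genes in the young rats of 3 subfields, the groups of 10 or fewer) were looked at. The same sample had 61.1 normalised reads of Hcn4 on Ion Proton and 49.5 in the WT table, and its summed thalamus and habenula markers were second among all libraries in each table. The part of such RNA in the value was not tested.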

How the results depend on the processing

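Of the 377 comparisons of a result with an alternative other than leaving out a rat, 314 kept direction and side of the threshold. The subfield calls, 5 of 12 (22.8% over all genes in the 3 contrasts), became 8 without the 3 Ion Proton libraries of fewest genes (26.3%) and 3 in rats below 9000 (19.9%). The WT table, where 1 table alone decides a call, gave 8 with a block on the rat, against 45.5% over all genes. In rats below 9000, Hcn2 CA1 minus CA3 was -0.082, Hcn3 -0.40 (not called), Hcn4 0.20 and Pex5l 0.51 (called), Hcn2 CA1 minus DG was 0.12 (not called), Hcn3 CA1 minus DG 0.047, and Hcn3 CA3 minus DG 0.45 (not called). In the WT table, with or without the block, Hcn2 was -0.066 for CA1 minus CA3 and 0.10 (not called) for CA1 minus DG; Pex5l CA1 minus CA3 (0.41) and Hcn4 against DG (0.44 and 0.68) were called, and Hcn2 CA3 minus DG (0.16) with the block alone. Without the 11 libraries the WT values were -0.031 and 0.095 for Hcn2, 0.49 for Pex5l, and 0.50 and 0.66 for Hcn4. Without the 3 Ion Proton libraries, Pex5l CA1 minus CA3 (0.34) and Hcn4 against DG (0.49 and 0.53) were called on Illumina values that did not change. Hcn4 CA1 minus CA3 was 0.051 in DESeq2 and 0.039 in edgeR; Hcn4 CA1 minus DG was called at 0.55 and 0.54, and at 0.35 with quantile normalisation; Hcn4 CA3 minus DG was called in DESeq2 (0.50), with quantile normalisation (0.39) and without the deep rats (0.53). Hcn3 CA3 minus DG was lost with pseudocount 0.1 (0.47) and without the deep rats (0.44). Hcn3 was higher in CA1 than in DG in 20 rats on Illumina and 12 in the WT table.

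Of the age tests, 1 of 36 was called (0.703% over all genes), against 0 on Ion Proton alone (0.791%) and in rats from 9000 up (0.64%), 2 without young rat R9876 (0.727%) and in the WT table by a rule on that table alone (1.18%), and 3 with the number series as a covariate (1.04%). Hcn2 in CA3 for OG against Y was not called at 0.26 (Ion Proton), 0.28 (WT), 0.29 (rats below 9000, without the deep rats, and without R9876) and 0.36 (rats from 9000 up). Hcn2 for aged against young was called in CA1 with the covariate (0.21), without R9876 (0.23) and in the WT table (0.30), and in CA3 without the 3 Ion Proton libraries (0.29) or the deep rats (0.28). Hcn2 in CA1 for OG against Y was called with the covariate (0.19), without R9876 (0.22), in the WT table (0.32) and in rats below 9000 (0.25). Of the tests of maze class, 0 of 12 were called, against 1 each in DESeq2 and edgeR (Hcn4 in CA1, 0.93 in both) and 1 in the WT table alone (Hcn3 in CA1, 0.36, where 1.48% of all genes were called). Hcn4 in CA3 for OB against OG was 0.51 in rats below 9000 and 0.29 without the 11 libraries. The causes were not tested.

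Leaving out each rat in turn, run for the subfield contrasts, CA3 OG against Y (Hcn2) and CA1 OB against OG (Hcn4) and for no other comparison of age or maze class, kept 446 of 454 values in their direction and on their side of the threshold. Hcn4 CA1 minus CA3 ran from -0.16 to 0.013 (above 0 without R9874), Hcn4 CA1 minus DG from 0.41 to 0.56 (called without R2232), Hcn4 CA3 minus DG from 0.47 to 0.58 (called without R1931), Pex5l CA1 minus CA3 from 0.32 to 0.37 (called without R1931 or R9869), Hcn2 CA3 OG against Y from 0.29 to 0.36 (lost without R1922 or R9876), and Hcn4 CA1 OB against OG from 0.51 to 0.85 (called without R9874). With the replicate block on the rat the Illumina and Ion Proton tables gave 5 subfield calls of 12, as without it; the pairing added the call of Hcn2 in the WT table given above and changed no other call. No paired analysis was possible because the groups hold different rats, for age and maze class. Depth limits Hcn4, whose values rest on a median of 22 reads.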

Other observations

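Among the other genes of the resting membrane, the lists gave few calls with maze class. In CA1, 2 of 21 genes of the resting conductance list met the rule for OB against OG, which 0.62% of all genes met, Dpp10, an auxiliary subunit of A-type potassium channels (0.44 ± 0.15, limma p = 0.0072, adjusted p = 0.62), and Kcnk1, a 2-pore potassium channel (0.34 ± 0.10, limma p = 0.0025, adjusted p = 0.56), both named here after their values were seen. The study had named Kcnk1 for this contrast from these same rats. In DG, 1 of 21 met it, against 0.121% of all genes, Kcnq5, a channel of the M-current (0.36 ± 0.11, limma p = 0.0037, adjusted p = 1), which was -0.45 ± 0.17 in CA1 (limma p = 0.014, adjusted p = 0.71). None of the 16 HCN partners and 15 genes of cAMP turnover met the rule in these 2 comparisons. In the WT table Hcn3 in CA1 was 0.36 ± 0.13 higher in OB than in OG rats (limma p = 0.0088, adjusted p = 0.64), against 0.22 ± 0.13 on Illumina (limma p = 0.099) and 0.66 ± 0.58 on Ion Proton (limma p = 0.26), where R2230 at 0 is an OG library.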
